A study of Mus musculus with 7 samples.

Results

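The comparison described here sets 1 culture of mouse neural cells exposed to imidacloprid for 1 day against 1 control culture, which are 2 of the 7 RNA libraries in the series. The 2 members were chosen by their titles alone, with no measured value used. Together they list 102580 of the 126309 distinct transcript events found in any library. The wild-type cells came from the embryonic stem cell line B6G-2. They had formed embryoid bodies for 6 days, had been expanded as neural progenitors with bFGF and EGF, and were moved at day 14 to a medium for differentiation. Brain is the labelled tissue, but these are stem cell cultures, and the labels give neither a dose nor a vehicle for the control. The other 5 libraries come from the same procedure with chlorpyrifos, DDT, rotenone, carbaryl or deltamethrin in place of imidacloprid. They serve here as the measure of how far libraries of this series differ, since no group has a replicate. With a single library a group, no difference below could be checked against replicates and no p-value is given. All values come from bulk RNA, so fewer cells of a type and less RNA per cell cannot be told apart.

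Imidacloprid is a neonicotinoid insecticide that acts as an agonist of nicotinic acetylcholine receptors. These receptors are cation channels built of subunits, and they open when acetylcholine binds, which depolarises the cell and, for some subunit combinations, lets calcium in. The compound binds insect receptors more tightly than mammalian ones. Neural progenitors and young neurons of the mammalian brain carry some of the subunits, the alpha7 subunit being known for its calcium permeability.

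Each library lists values in FPKM, that is, fragments scaled to transcript length and library size, for transcript starts, transcript ends, skipped exons, retained introns and alternative exons. Imidacloprid listed 90522 distinct events and control 90960, while the 7 libraries spanned 90522 to 92229. Both listed 78902 of these events, 11620 were listed with imidacloprid and not in control, and 12058 were the reverse. Events listed in a single library numbered 2969 for imidacloprid and 3026 to 3377 for the other 6. Read counts were not used here and the depth is unknown, so no counting interval is given.

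The labelled cell identity was checked against markers. All 8 neural progenitor markers averaged 1 FPKM or more across libraries, and their summed level was 1446 FPKM with imidacloprid, 1379 in control and 1265 to 1523 in the others. Vim (vimentin, an intermediate filament of progenitors) stood at 1167 FPKM with imidacloprid and 1062 in control. For neurons, 5 of 7 markers passed 1 FPKM, summing to 229 with imidacloprid, 210 in control and 201 to 232 in the others. For astrocytes, 4 of 7 passed, summing to 173, 162 and 164 to 197 in the same order, with Gfap at 0.63 and 0.64 FPKM and Aqp4 and S100b at 0 in both libraries. For the oligodendrocyte lineage, 4 of 6 passed, summing to 173, 166 and 113 to 173. None of the 5 microglial markers had a value, Kdr alone of 4 endothelial markers did, and Pou5f1 and Nanog, the factors of pluripotent cells, were at 0 in both libraries. The 5 mesenchymal markers summed to 23.0 FPKM with imidacloprid, 23.4 in control and 20.1 to 30.1 in the others.

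Gene values were compared for 6165 genes that were listed in both libraries. With imidacloprid, 54 genes were at least 2-fold higher than in control (0.876% of those compared) and 54 were at least 2-fold lower (0.876%). Folds are differences of log2(FPKM + 1), which understates the change of low genes. The 5 other exposed libraries differed from the same control by 2-fold at 99 to 128 genes, or 1.61% to 2.08%, so the 108 genes of imidacloprid (1.75%) lie inside that range. Against each of the other exposed libraries, imidacloprid differed by 2-fold at 104 to 113 genes. The SD of the log2 ratios was 0.31 against control, with 0.31 to 0.33 for the other exposed libraries, and 94.0% of genes lay within 1.5-fold of control. The middle gene was 0.01 higher on the log2 scale, and 53.5% of genes were higher.

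Single events differed more often than genes. Summed starts differed by 2-fold for 3.13% of 9917 genes and summed ends for 3.96% of 7732. At 2-fold, 11.9% of 13334 transcript starts, 5.98% of 8476 transcript ends and 10.9% of 8655 alternative exons differed between imidacloprid and control. Among single skipped exons, the event that includes the exon differed at 12.8% of 8915 and the event that leaves it out at 14.6% of 6511. For groups of exons skipped together these shares were 14.7% of 2948 and 20.8% of 864. The retained form of single introns differed at 19.6% of 1069 and the spliced form at 12% of 4530. The spliced form of several introns differed at 14.7% of 875. A few of these shares were above the 5 other exposed libraries against control, whose ranges were 5.26% to 5.82% for transcript ends, 11.5% to 12.2% for included exons and 10.5% to 11.5% for spliced introns. The others lay inside or below their ranges, with one exception in a small class. For transcripts that retain several introns, 30.1% of 93 events differed, 9 higher (9.68%) and 19 lower (20.4%), against 17% to 27.4% in the other exposed libraries.

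**Figure D1:**
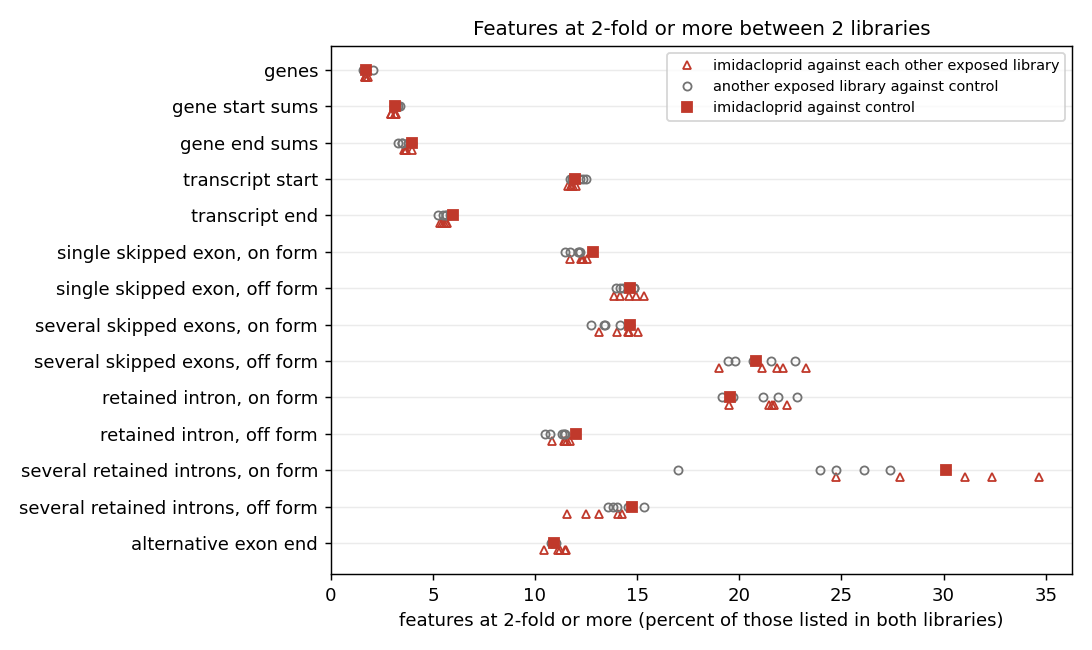
Percent of features at 2-fold or more between 2 libraries (horizontal axis) for genes, gene start and end sums and each type of event (vertical axis). Filled squares are imidacloprid against control, open circles the other 5 exposed libraries against control, and triangles imidacloprid against each of those 5; gene values sit at 1.61% to 2.08% for all of them, and single events at 5.26% to 34.7%.

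The 108 genes fall into sets by where control and imidacloprid stand among the 7 libraries. They were chosen by these 2 libraries, which by itself places control and imidacloprid at the ends more often. Over all 6196 genes, control was the lowest library for 13.9% and the highest for 12.9%. Imidacloprid was the highest for 15.2% and the lowest for 12.1%. Control lay at least 2-fold below every exposed library for 13 of the 6196. Of the 54 higher genes, control was the lowest library for 34, and for 12 of these it lay at least 2-fold below every exposed library. Imidacloprid was the highest library for 19 of the 54, and 10 of the 54 belonged to both sets. Only 10 of the 54 were also 2-fold above the median of the 5 other exposed libraries, while 37 were within 1.5-fold of that median. The 54 lower genes were placed differently: imidacloprid was the lowest library for 36 of them, control was the highest for 19, and 28 were also 2-fold below the median of the 5. With that median as the reference in place of control, 18 genes were 2-fold higher and 40 were 2-fold lower. These counts leave out genes whose median of the 5 was 0, such as Ctxn1 and Gm49331, which are among the 10 above.

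**Figure D2:**
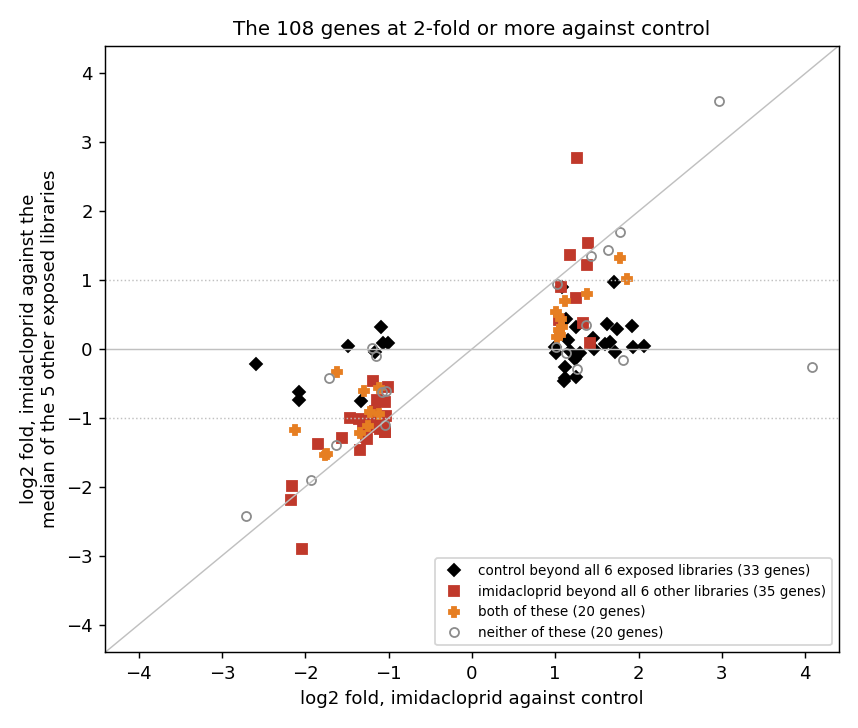
Each point is 1 of the 108 genes at 2-fold or more, with the log2 fold against control on the horizontal axis and the log2 fold against the median of the 5 other exposed libraries on the vertical axis. The solid diagonal marks equal folds and the dotted lines 2-fold; 37 of the 54 higher genes lie within 1.5-fold of that median, against 13 of the 54 lower genes.

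The share of genes at 2-fold grew with the number of annotated transcripts, over which an FPKM estimate has to be split. It was 0.392% of 510 genes with 1 transcript, 1.03% of 2619 genes with 2 to 4, and 2.60% of 3036 genes with 5 or more. The median level of the 3 classes was 8.49, 10.5 and 12.4 FPKM. The part this plays in single genes below was not tested.

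The genes with the largest folds against control were mostly ones in which control stood alone or in which several insecticides shared the value. In what follows, values of the 5 other exposed libraries are given in the order chlorpyrifos, DDT, rotenone, carbaryl and deltamethrin. Nipa2, a magnesium transporter, was at 2.06 FPKM in control and 11.9 with imidacloprid (log2 fold 2.07), and at 10.9, 12.1, 13.3, 11.4 and 10.4 in the others. Mzt2, a component of gamma-tubulin complexes, was at 3.84 in control and 17.5 with imidacloprid (1.94), and at 18.8, 17.2, 14.9, 16.5 and 17.9. Its start at chromosome 16, 15862748, held 0.000362 FPKM in control and 12.2 to 14.1 in the exposed libraries. The Mzt2 start at 15863223 was at 3.32 in control, 4.67 with imidacloprid and 2.43 to 5.81 in the others. Lgalsl, a galectin-like protein, was at 2.01 and 10.4 (1.92), and at 9.24, 6.30, 11.6, 6.56 and 8.05. In these 3 genes the control library was the low one and imidacloprid lay among the exposed. Nipa2 shares exon sequence with Cyfip1 on the opposite strand, and whether reads were counted by strand is not given.

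Other high folds were shared with a subset of the insecticides. Twsg1, a secreted protein that binds bone morphogenetic proteins, was at 5.36 in control, 22.2 with imidacloprid (1.87), and 6.78, 7.75, 10.4, 20.8 and 19.4 in the others. Imidacloprid was the highest of the 7, 0.09 on the log2 scale above carbaryl. Lsm5, a member of the ring that holds U6 RNA in the spliceosome, was at 7.54 and 28.2 (1.77), and at 5.03, 27.2, 7.69, 32.7 and 8.0, so that DDT, carbaryl and imidacloprid were high and the rest low. Rsrc1, an arginine and serine rich splicing protein, was at 2.44 and 11.1 (1.82), with carbaryl alone at the control level (2.39) and the others at 11.3 to 13.6. Eno1b, an enolase gene whose sequence is close to that of Eno1, had the largest fold, from 3.33 to 72.1 (4.08), but the other libraries spanned 2.55 to 107 and its value against their median was -0.26.

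Myl12a is the one gene of the 8 highest folds in which imidacloprid stood far from all others. It encodes a regulatory light chain of non-muscle myosin, and its value was 35.4 FPKM in control, 123 with imidacloprid (log2 fold 1.77) and 48.8, 55.4, 37.5, 50.1 and 35.6 in the others. The next highest library was DDT. On GRCm38 it lies on chromosome 17 at 70993656 to 71002878, minus strand, beside and partly within the annotated span of Myl12b, which encodes a near-identical chain. Its main start, at 71002108, stood at 116 FPKM with imidacloprid against 36.6 to 48.7 elsewhere, and its end, at 70974496, at 121 against 29.0 to 60.9. The start is annotated to Myl12a and to Myl12b, and the end lies outside Myl12a and is annotated to 2 gene models of Myl12b alone, although its line names Myl12a. The value therefore cannot be assigned to Myl12a rather than Myl12b, and the gene cannot be compared once such lines are left out. The 2 starts annotated to Myl12b alone were at 29.4 and 27.4 FPKM with imidacloprid and at 5.73 and 22.7 in control, with 4.41 to 30.6 and 22.3 to 28.3 in the others.

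The 8 lowest folds held more genes in which imidacloprid itself was the odd library. Rpf2, a factor that brings the 5S particle into the large ribosomal subunit, was at 10.96 FPKM in control and 1.92 with imidacloprid (log2 fold -2.03), and at 24.0, 26.7, 13.2, 14.4 and 20.9 in the others. Control was the nearest library, and the fold against the median of the 5 was -2.90. Rpf2 lies on chromosome 10 at 40223246 to 40247036, and its single start and single end gave 1.92 FPKM each. Rad51ap1, a protein of DNA repair by recombination, was at 11.2 and 2.62 (-1.76), and at 9.58, 7.08, 9.46, 9.98 and 6.41. Ncoa6, a coactivator of nuclear receptors, was at 11.4 and 2.70 (-1.74), and at 10.1, 5.45, 9.65, 8.36 and 11.3. Zfp426, a zinc finger protein, was at 11.4 and 1.84 (-2.13), and at 8.12, 6.08, 5.43, 4.92 and 4.5. In each of these 4 genes imidacloprid was the lowest library.

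The remaining 4 were shared with other insecticides. Crip2, a LIM domain protein, was at 71.6 FPKM in control and 10.1 with imidacloprid (-2.71), close to carbaryl (9.49) and deltamethrin (8.27), while the other 3 were at 58.3 to 74.7. Dmap1, a subunit of chromatin remodelling and acetylation complexes, was at 16.8 and 3.68 (-1.93), near carbaryl (3.36), with the other 4 at 14.6 to 17.0. Stard4, which carries cholesterol between membranes, was at 20.5 and 4.13 (-2.07), and at 3.64, 16.5, 7.55, 20.2 and 4.72. Serinc1, a membrane protein, was at 52.8 and 7.93 (-2.59), with 7.82 to 32.3 in the others, so that control was the high library.

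A second set was chosen by distance from all 6 other libraries rather than from control. In all, 4 of 6196 genes were at least 2-fold above the 6 others with imidacloprid (0.0646%) and 9 were at least 2-fold below (0.145%), 13 in all. The same count was 9 to 23 for the other libraries, control included with 14. The 4 above were Myl12a and the pseudogenes Gm49331, Gm12715 and Gm13509. Gm12715 and Gm13509 were at 44.1 and 23.3 FPKM with imidacloprid and were not listed in the 6 others. The 9 below include Tceal5, Zfp120 and the pseudogene Gm3650, which were not listed with imidacloprid. Imidacloprid was the highest of the 7 for 15.2% of genes and the lowest for 12.1%.

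After Myl12a, the named genes farthest above the others had folds of 0.50 to 0.93 against control on the log2 scale. Of these, Pdap1, Uhrf2 and Reep5 had close values in the 6 other libraries. Pdap1, a phosphoprotein that binds platelet-derived growth factor A, was at 42.9 FPKM in control, 66.5 with imidacloprid and 39.0, 43.4, 44.2, 40.8 and 39.7 in the others. Uhrf2, a ubiquitin ligase that reads modified cytosine, was at 16.4, 23.5 and 17.1, 16.9, 16.7, 17.3 and 16.9. Reep5, which shapes the endoplasmic reticulum, was at 18.6, 28.7 and 17.97, 20.1, 19.4, 20.03 and 18.7. The log2 gaps to the nearest library were 0.58, 0.42 and 0.49 for Pdap1, Uhrf2 and Reep5. The Uhrf2 start at chromosome 19, 30089343, held 10.7 FPKM with imidacloprid against 0.0771 to 1.07 elsewhere. The Uhrf2 start at 30030931 was lower with imidacloprid, at 14.6 FPKM against 16.3 to 19.3 elsewhere. Tlk2, a kinase of chromatin assembly, was at 14.1 in control, 22.2 with imidacloprid and 10.3 to 13.2 in the others, and its start at chromosome 11, 105208921, held 9.58 FPKM with imidacloprid against 0.115 to 2.85 elsewhere. Mrpl15 (mitochondrial ribosome) was at 22.1 against 11.7 to 16.1, Snrpg (core of spliceosomal particles) at 42.9 against 17.2 to 31.5, and Dtymk (thymidylate kinase) at 48.2 against 12.7 to 36.0, the widest range of these genes. The Pdap1 and Tlk2 exons overlap genes on the opposite strand, Arpc1b and an antisense transcript.

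Among the genes farthest below, besides Rpf2, Rad51ap1 and Zfp426, were Ldhb, Cox11, Dnajc7 and Nt5c. Ldhb, the lactate dehydrogenase subunit that favours oxidation of lactate, was at 112 FPKM in control, 53.7 with imidacloprid (log2 fold -1.05) and 110, 106, 132, 111 and 113 in the others. Its main start was at 48.2 FPKM and its end at 58.3 with imidacloprid, against 105 to 132 elsewhere for both. Cox11, which inserts copper into cytochrome oxidase, was at 16.5 and 5.91 (-1.34), and at 15.0, 14.5, 15.5, 15.3 and 14.5. Dnajc7, a cochaperone of heat shock proteins, was at 45.5 and 21.5 (-1.05), and at 49.8, 49.8, 54.1, 50.7 and 50.9. Its start at chromosome 11, 100620026, matched no annotated gene. That start held 31.7 FPKM in control, 1.26 with imidacloprid and 0.747 to 44.7 in the others. When starts and ends were assigned by the annotation alone, Dnajc7 could not be compared. Nt5c, a cytosolic nucleotidase, was at 38.1 and 19.1 (-0.96), and at 45.0, 43.6, 50.6, 41.8 and 55.1. In Ldhb, Cox11 and Dnajc7 the 6 other libraries lay close together, while in Nt5c they spanned 38.1 to 55.1 FPKM. In these 4 genes imidacloprid was 0.96 to 1.17 below the nearest library on the log2 scale. Nt5c and Ldhb were at the small end and Cox11 at the large end. Cox11, Dnajc7 and Nt5c share exon sequence with genes on the opposite strand.

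Ggps1, which makes the lipid that anchors small GTPases to membranes, differed both at its start and among its ends. The gene was at 13.6 FPKM in control, 5.10 with imidacloprid (-1.26) and 13.6, 15.8, 13.1, 15.3 and 14.1 in the others. Its start was at 13.5 FPKM in control, 4.80 with imidacloprid and 13.1 to 15.7 in the others. Its end at chromosome 13, 14052130, held 7.43 FPKM in control, 5.93 to 7.70 with the other insecticides, and was not listed with imidacloprid. The end at 14054455 was at 4.37 in control, 5.10 with imidacloprid and 5.83 to 9.52 in the others. A further end, at 14052393, held 1.83 FPKM in control and was listed in no exposed library. The exons of Ggps1 overlap those of Arid4b on the opposite strand.

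**Figure D3:**
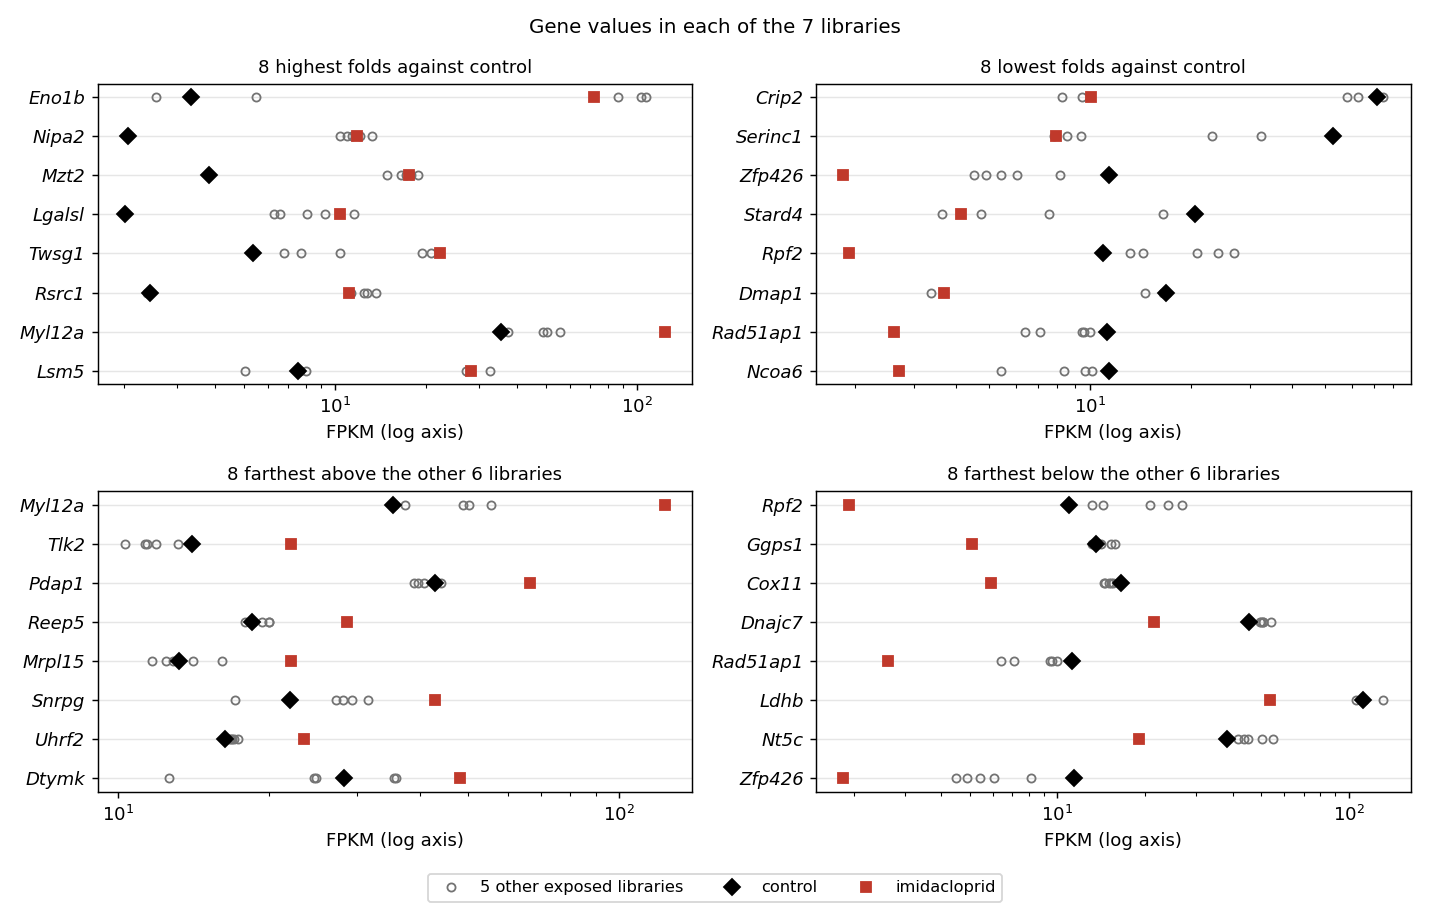
FPKM on a log axis in each of the 7 libraries for the 8 highest and 8 lowest folds against control and for the 8 genes farthest above and below the other 6 libraries. Squares are imidacloprid, diamonds control and circles the 5 other exposed libraries, 1 library each; Nipa2 and Mzt2 show control alone at the low end, while Rpf2, Ldhb and Cox11 show imidacloprid alone there.

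Few genes of the receptor that imidacloprid binds had a value in these libraries. Of 16 nicotinic subunit genes, 1 could be compared. Chrna7, the alpha7 subunit, was at 2.12 FPKM in control, 2.25 with imidacloprid and 2.72, 1.98, 1.74, 1.9 and 2.62 in the others, and imidacloprid lay inside their range. Chrna4 had a start total only, 3.51 in control, 3.46 with imidacloprid and 3.18 to 5.15 elsewhere. Chrnb1, a muscle-type subunit, was at 0.495 and 0.734. Chrna3 was at 1.11 in control and 0 with imidacloprid, with 3 of the other 5 also at 0. Chrna5 and Chrnb4 were at 0 in both libraries, and the other 10 subunit genes had no value here. A missing value does not show that a gene is silent, since 7 of 48 ribosomal protein genes had none either.

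Proteins that fold, traffic or modulate the receptors differed little. Of 12 symbols, of which 1 is an older name of Tmem35a, 7 were compared, 5 higher and 2 lower with imidacloprid, with a median log2 fold of 0.07 beside 0.01 for all genes. Tmem35a, a chaperone of alpha7 receptors, was at 49.7 in control, 50.5 with imidacloprid and 46.3 to 48.2 in the others. Ric3, another receptor chaperone, was at 4.20 and 4.01, and Lynx1, a membrane-bound modulator, at 6.92 and 7.72, both inside the range of the others. Ly6e was at 16.2 and 17.2, Agrn (agrin, which clusters receptors) at 40.6 and 42.8, Vsnl1 at 0.559 and 0.752, and Lypd6 at 1.69 and 1.63, the last being the lowest of 7. Ly6h had a start total only, 29.5 and 21.7, and Unc50 had ends that disagreed, 24.5 and 22.0.

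The enzymes that break down acetylcholine were the highest of the 7 libraries with imidacloprid. Bche, butyrylcholinesterase, was at 3.26 FPKM in control, 3.99 with imidacloprid (log2 fold 0.23) and 3.67, 1.38, 3.41, 3.59 and 2.72. Ache, acetylcholinesterase, whose start and end totals disagreed, had a larger total of 1.10 in control, 2.04 with imidacloprid and 0.319 to 1.59 in the others. The gap to the nearest library was small against the range of the others in both. Chrm3, a muscarinic receptor, was at 0.660 and 0.225, Chrm4 at 0 and 0.634, and Chrm1 and Prima1 at 0 in both. Acly, which makes the acetyl group donor, was at 139 and 140, and the remaining 6 of the 13 genes had no value here.

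Immediate early genes had a median above control in every exposed library. Of 20 such genes, which neurons switch on rapidly after activity, 7 were compared and 6 were higher with imidacloprid, with a median log2 fold of 0.15 and medians of 0.08 to 0.29 for the other insecticides. Egr1 was at 14.0 FPKM in control and 23.4 with imidacloprid (0.71), above the 15.4, 14.6, 19.97, 18.7 and 17.7 of the others. Fos was at 2.66 and 4.69 (0.64), and at 3.63, 2.53, 4.74, 4.26 and 3.26. Nr4a3 was at 0.582 and 1.34, and Arc at 5.34 and 6.05, both inside the range of the others. Against the median of the 5 others, the list's median was 0.01. None of the 7 was 2-fold.

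Of 28 genes of calcium and CREB signalling, 13 were compared, 9 higher and 4 lower, with a median of 0.03. Camk1d, a calmodulin-dependent kinase, was at 0.432 and 1.94 (1.04), with 0.783 to 1.84 in the others. Ppp3cb, a catalytic subunit of calcineurin, was at 17.97 and 31.8 (0.79), and at 32.3, 30.2, 33.6, 20.6 and 16.6. Nfatc3 was at 10.6 and 12.5, Camk2d at 7.72 and 8.91 and Atp2a2, the calcium pump of the endoplasmic reticulum, at 75.8 and 84.8, each the highest of 7. Of 15 voltage-gated calcium channel genes, only Cacna1c was compared, at 2.52 in control, 1.03 with imidacloprid (-0.80) and 0.978 to 1.5 in the others.

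All 8 of the sodium and potassium channel and pump genes compared, of 24, were higher with imidacloprid, with a median of 0.14 and other medians from -0.11 to 0.26. Kcnk2, a background potassium channel, was at 1.27 in control, 6.59 with imidacloprid (1.74) and 3.46, 5.87, 5.17, 10.9 and 5.16 in the others, so control was the low library. Kcnj10, a potassium channel of glia, was at 19.2 and 21.5, inside the range of the others.

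The series title names glial differentiation, and here the glial genes were split. Of 21 astrocyte markers, 9 were compared, 6 higher and 3 lower, with a median of 0.07 and other medians from -0.14 to 0.11. Nfia and Nfib, factors that start astrocyte formation, were the lowest of 7 with imidacloprid: Nfia at 11.4 in control, 8.30 with imidacloprid (-0.42) and 8.83 to 13.2 in the others, and Nfib at 40.9, 32.7 (-0.31) and 33.0 to 43.0. Id3, a target of bone morphogenetic proteins, was the highest, at 89.6, 106 and 78.0 to 97.5, as were Hepacam, an adhesion protein of astrocytes, at 1.10, 1.61 and 0.7 to 1.4, and Glul (glutamine synthetase) at 149, 157 and 122 to 151. Of 27 genes of gliogenic signalling, which include Nfia, Nfib and Id3, 14 were compared, 6 higher and 8 lower, with a median of -0.01. Jak2, a kinase of the cytokine pathway that promotes astrocytes, was at 14.4 and 18.1 (0.31), above the 12.4 to 15.8 of the others. Of the 14, 3 were the highest of 7 and 4 the lowest, beside 15.2% of all genes at the top and 12.1% at the bottom.

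In the oligodendrocyte lineage, 2 of 17 markers were compared. Mbp, myelin basic protein, was at 1.42 FPKM in control, 0.626 with imidacloprid (-0.58) and 1.26, 1.33, 1.68, 1.36 and 1.60 in the others. It was the lowest of 7, at a level close to the pseudocount. Cldn11, a tight junction protein of myelin, was at 1.53 and 1.26.

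Genes of progenitors and of Notch signalling, which keeps cells in the progenitor state, differed by small amounts. Of 20 progenitor markers, 7 were compared and 6 were higher, with a median of 0.07 and other medians from -0.04 to 0.02. Without the filter on agreement of start and end sums the median was -0.03. Among the markers left out by that filter, Nes (nestin) had a total of 206 in control and 176 with imidacloprid, Msi1 (musashi) 33.2 and 20.8, the lowest of 7, and Fabp7 6.72 and 3.83. Hes1, the main Notch effector, was at 27.0 in control, 32.7 with imidacloprid (0.26) and 25.4 to 31.2 in the others. Sox2 was at 24.7 and 26.0, Ptprz1 at 95.9 and 103, and Tnc at 50.5 and 44.3. Of 26 Notch and proneural genes, 12 were compared and 9 were higher, with a median of 0.11 and other medians from -0.002 to 0.10. Rfng, which modifies Notch, was at 9.30 and 16.6 (0.77), and at 13.2 to 17.1 in the others, so control was the low library. Neurog2 was at 0.723 and 1.37, Lfng at 52.0 and 57.4 (highest of 7) and Jag1, a Notch ligand, at 8.46 and 7.61 (lowest of 7).

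Genes of neurons lay on both sides. Of 22 genes of the neuronal cytoskeleton and growth, 9 were compared, 3 higher and 6 lower, with a median of -0.07 and other medians from -0.07 to 0.03. Crmp1, a mediator of semaphorin signals, was the lowest of 7 at 55.6 against 72.2 in control (-0.37) and 61.9 to 77.5 in the others. Dcx, doublecortin of migrating neurons, was the lowest at 22.7 against 26.4 and 23.3 to 27.0. Dpysl3, a relative of Crmp1, was at 38.2 and 55.6 (0.53), inside the 43.5 to 57.5 of the others. Of 23 synaptic vesicle genes, 11 were compared, 7 higher and 4 lower, with a median of 0.01. Syt1, the calcium sensor of release, was at 3.07 in control, 12.4 with imidacloprid (1.72) and 11.5, 12.9, 12.3, 12.9 and 14.7 in the others, so control was again the low library. Snap25 was at 7.41 and 8.93 and Vamp2 at 31.2 and 36.2, both the highest of 7. Of 27 genes for transmitters other than acetylcholine, 8 were compared, 2 higher and 6 lower, with a median of -0.11 and other medians from -0.05 to 0.11. Slc17a6, a vesicular glutamate transporter, was at 1.23 and 0.977 (lowest of 7), Gria2 at 29.99 and 27.2, Gad2 at 3.16 and 2.78, and Slc32a1 at 4.42 and 5.26.

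Genes of cell division had a median near control with imidacloprid. Of 25 genes of G2 and mitosis, 19 were compared, 11 higher and 8 lower, and the median was 0.02, while the medians for the other insecticides were -0.18 to -0.04. Of the 19, 10 were the highest of the 7 libraries with imidacloprid and none was the lowest, beside 15.2% of all genes at the top and 12.1% at the bottom. Kif20a, a kinesin of the midzone, was at 20.1 in control, 30.01 with imidacloprid (0.56) and 24.7, 13.8, 19.9, 21.8 and 27.9. Birc5, survivin, was at 65.4 and 78.2 (0.25), and at 64.9 to 76.2, Plk1 at 61.3 and 66.7, and at 53.5 to 62.1, and Ube2c at 148 and 159, and at 137 to 147. The other 6 were within 0.12 of control on the log2 scale. Lower values were seen for Ccnb1, cyclin B1, at 60.3 and 34.5 (-0.79), and at 62.4, 30.3, 44.3, 40.1 and 56.2, and for Mki67 at 52.5 and 44.8. Cdk1 was at 18.9 and 26.9 (0.49), with 19.9 to 32.8 in the others. None of the 19 was 2-fold, and the difference between insecticides was not tested. Of 22 S phase genes, 17 were compared, 7 higher and 10 lower, with a median of -0.03. Cdc6, a licensing factor of replication, was the lowest of 7 at 9.59 against 14.3 in control and 9.84 to 12.04, and Mcm4 was at 33.0 and 47.1 with 42.6 to 47.4 in the others.

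The stress lists were near control. Of 22 ATF4 targets, which amino acid shortage and mitochondrial stress switch on, 13 were compared, 7 higher and 6 lower. Their median was 0.003, with -0.03 to 0.48 for the other insecticides, and none was 2-fold. Asns (asparagine synthetase) was at 32.8 FPKM in control, 35.2 with imidacloprid and 39.5, 52.8, 53.6, 32.8 and 39.4 in the others. Chac1 was at 2.10 and 3.13, and at 4.33, 8.49, 6.52, 2.49 and 4.42. Trib3 was at 0.656 and 1.06, Vldlr at 4.28 and 6.64, and Atf4 itself at 102 and 101, the lowest of 7. In Asns, Chac1 and Trib3 imidacloprid stood with carbaryl at the low end of the exposed libraries.

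Of 19 p53 targets, 10 were compared, 6 higher and 4 lower, with a median of 0.03 and other medians of 0.09 to 0.19. Eda2r, a death domain receptor, was the one at 2-fold, at 5.32 in control, 1.47 with imidacloprid (-1.35) and 2.01, 5.68, 2.79, 6.11 and 3.97. Ccng1, a p53 target that feeds back on p53, was at 74.3 and 76.8, below the 81.3 to 88.4 of the others. Of 23 apoptosis genes, 6 were compared, 3 higher and 3 lower, with a median of 0.05 and Casp6 the highest of 7 at 14.5 against 11.6.

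Of 22 genes of the unfolded protein response, 16 were compared, 11 higher and 5 lower, with a median of 0.05. Hspa5, the chaperone BiP, was the lowest of 7 at 194 FPKM against 259 in control (-0.42) and 230, 264, 240, 248 and 259. Xbp1 was at 19.8 and 23.9. Of 17 heat shock genes, 8 were compared and 7 were higher, with a median of 0.10 and other medians from -0.002 to 0.12. Hsp90aa1 was at 141 and 215 (0.60), and at 155, 167, 161, 213 and 146, and Bag3 at 11.1 and 12.6, both the highest of 7. Of 26 NRF2 and antioxidant genes, 19 were compared, 11 higher and 8 lower, with a median of 0.01. G6pdx was at 8.94 and 15.4 (0.72), with 8.57 to 19.0 in the others, Mgst1 at 47.7 and 29.3 (-0.68), with 29.1 to 86.8, and Hmox1 at 19.8 and 19.1, the lowest of 7. Of 25 genes of xenobiotic metabolism, 3 were compared, all lower, with the largest fold -0.16 for Abcb1b, an efflux pump, at 1.38 and 1.12.

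Among metabolic lists, 4 of the 12 glycolysis genes compared, of 21, were the lowest of 7 with imidacloprid, beside 12.1% of all genes. The median of the 12 was 0.01, with 7 higher and 5 lower, and other medians from -0.08 to 0.10. Besides Ldhb, these were Slc2a3, a glucose transporter of neurons, at 4.26 and 2.93 (-0.42), with 2.97 to 4.48 in the others, Pfkp, a phosphofructokinase, at 6.20 and 4.77 (-0.32), with 6.31 to 8.34, and Hk1, a hexokinase, at 14.8 and 13.5, with 14.4 to 15.5. Pgam1 was the highest of 7 at 79.9 against 70.9.

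Of 37 genes of respiratory complex I, 32 were compared, 20 higher and 12 lower, with a median of 0.05 and other medians from -0.02 to 0.10. The highest of 7 was imidacloprid for 7 of the 32, beside 15.2% of all genes. Ndufv1, the subunit that takes electrons from NADH, was at 24.5 FPKM in control, 63.5 with imidacloprid (1.34) and 48.8, 55.4, 38.2, 54.3 and 23.0. Ndufa6 was at 38.4 and 78.4 (1.01), and at 55.2, 50.1, 53.2, 53.7 and 73.7, and Ndufb10 at 61.1 and 96.7 (0.65), with 78.1 to 87.4 in the others. Ndufa12 was at 81.8 and 157 (0.93), with 83.0 to 157 in the others. For complexes II to V, 20 of 38 were compared, 13 higher and 7 lower, with a median of 0.01, and Uqcrc2 was the lowest of 7 at 62.4 against 70.2 in control and 83.8 to 95.2 in the others. Of 23 genes of cholesterol synthesis, 12 were compared, 8 higher and 4 lower, with a median of 0.05 and other medians from -0.38 to 0.08, and the largest difference was in Msmo1, at 100.4 and 75.6 (-0.41), with 39.5 to 89.9 in the others. Of 17 genes of fatty acid synthesis, 8 were compared, 4 higher and 4 lower, with a median of 0.01.

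Lists of the basic machinery had medians near 0 with single members far off. Of 52 splicing regulators, 24 were compared, 12 higher and 12 lower, with a median of -0.003. The list holds Rsrc1 and Lsm5, described above, which were put on it with their folds known. Hnrnpm, a splicing repressor, was at 5.46 in control, 1.20 with imidacloprid (-1.56) and 3.53, 4.35, 1.58, 4.83 and 7.48. When starts and ends were assigned by the annotation alone, Hnrnpm could not be compared. Tra2b, an activator of exon inclusion, was at 53.7 and 80.9 (0.58), with 68.7 to 79.3 in the others, and Rbfox2 at 34.7 and 26.3 (-0.39), with 27.6 to 33.0. Of 31 proteasome genes, 20 were compared, 12 higher and 8 lower, with a median of 0.01, and Psmd4, a ubiquitin receptor of the particle, was at 25.0 and 66.6 (1.38), near carbaryl (55.5) with the other 4 at 24.6 to 30.4. Of 48 ribosomal protein genes, 28 were compared, 16 higher and 12 lower, with a median of 0.02. Rpl7a was at 369 and 290 (-0.35), with 258 to 354 in the others. The remaining lists had few members compared: 5 of 26 neurotrophic genes (2 higher, 3 lower), 10 of 14 mesenchymal and matrix genes (7 higher, 3 lower), 1 of 9 neural crest markers (higher), 2 of 11 pluripotency markers (both higher) and 3 of 12 ciliated and choroid genes (2 higher, 1 lower), none at 2-fold. No member of the microglial, endothelial or endodermal lists could be compared.

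**Figure D4:**
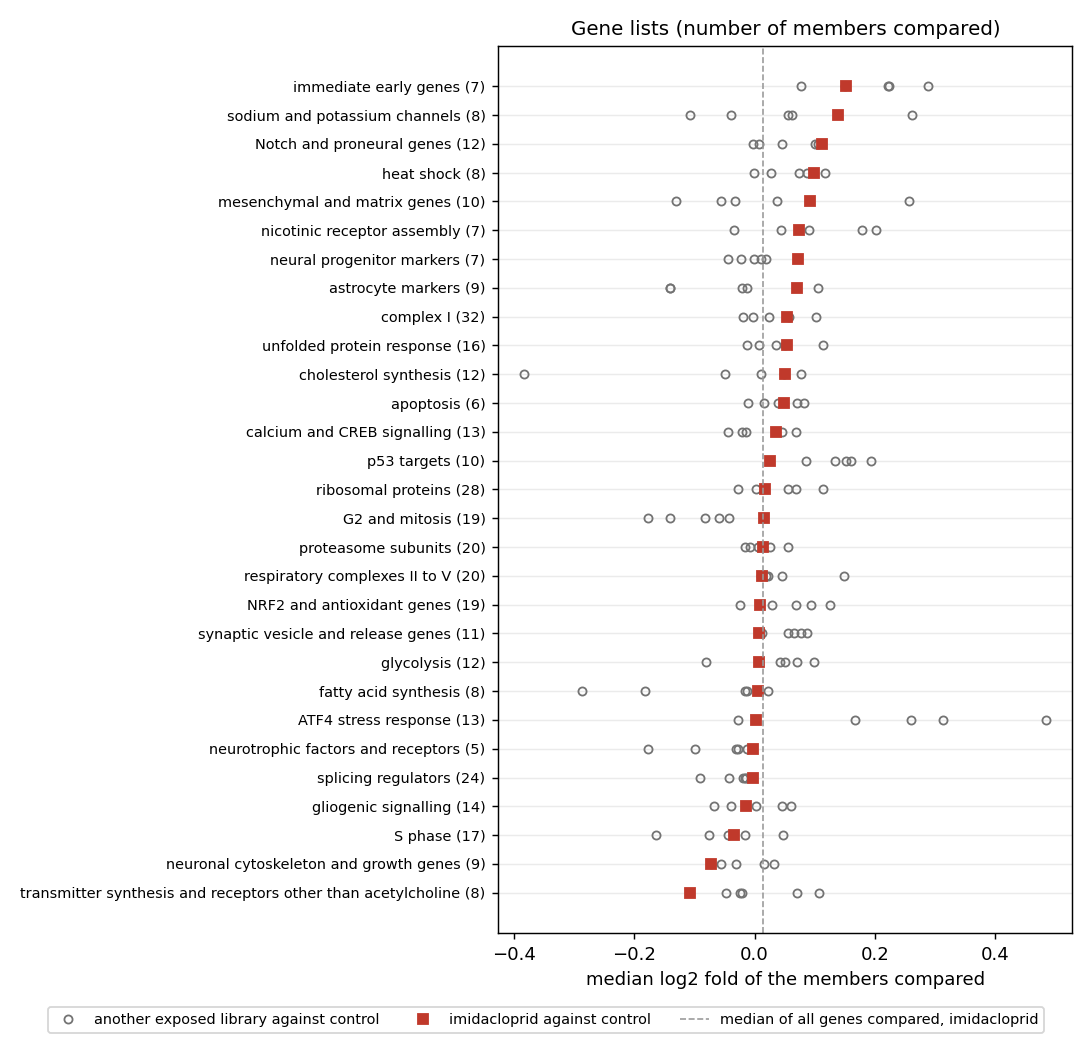
Median log2 fold of the members compared (horizontal axis) for each list with at least 5 of them (vertical axis, number in parentheses). Squares are imidacloprid against control, circles each of the other 5 insecticides against the same control, and the dashed line is the median of all genes for imidacloprid; G2 and mitosis lies to the right of its 5 circles at 0.02, and the ATF4 list at 0.003 lies left of 4 of its 5.

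The on and off forms of exons and introns give a share, the percent of the 2 forms' FPKM that includes the exon or keeps the intron. Of 9950 pairs with at least 5 FPKM in both libraries, the share was at least 20 percentage points higher with imidacloprid in 504 (5.07%) and lower in 546 (5.49%). The 1050 pairs (10.6%) compare with 1005 to 1045 for the other exposed libraries against control. By kind, the counts were 346 higher and 376 lower among 6336 single skipped exons (11.4% in either direction), 58 and 54 among 1273 groups of skipped exons (8.8%), 89 and 99 among 2033 single introns (9.25%) and 11 and 17 among 308 groups of introns (9.09%). The shares higher and lower in the same order were 5.46% and 5.93%, 4.56% and 4.24%, 4.38% and 4.87%, and 3.57% and 5.52%. Exons of at most 51 bases, called microexons and typical of neuronal transcripts, differed at 14.3% of 835, and longer ones at 10.96% of 5501. The other exposed libraries gave 13.5% to 16.0% and 10.2% to 10.9% for the same classes.

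Some exons were used in imidacloprid as in no other library. Over the 8424 pairs with 5 FPKM in all 7, imidacloprid lay at least 20 points above every other library in 51 (0.605%) and below every other in 48 (0.57%), 99 in all, with 95 to 127 for the other libraries. The 4 exons printed next were taken from the single exons with the 5 largest differences from control in each direction. Of the 4, 3 separate imidacloprid from all 6 others by over 70 points. The other is the microexon with the largest difference from control. An exon of Rpl10a, of 314 bases, separates imidacloprid by 95.1 points but was left out for its length. Capitals are the skipped exon and the 20 lower-case bases on each side are the neighbouring exons, as joined in an annotated coding transcript of GENCODE M21 on GRCm38, all on the minus strand and read 5′ to 3′.
Os9: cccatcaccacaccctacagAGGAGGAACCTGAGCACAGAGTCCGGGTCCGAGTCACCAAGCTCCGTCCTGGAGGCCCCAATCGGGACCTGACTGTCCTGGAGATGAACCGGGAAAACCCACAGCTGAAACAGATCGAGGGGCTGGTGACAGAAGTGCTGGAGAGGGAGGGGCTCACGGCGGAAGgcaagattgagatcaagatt
Npepps: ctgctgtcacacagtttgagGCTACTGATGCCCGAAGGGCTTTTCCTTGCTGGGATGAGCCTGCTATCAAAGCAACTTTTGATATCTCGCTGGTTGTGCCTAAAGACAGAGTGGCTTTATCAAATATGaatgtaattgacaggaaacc
Med15: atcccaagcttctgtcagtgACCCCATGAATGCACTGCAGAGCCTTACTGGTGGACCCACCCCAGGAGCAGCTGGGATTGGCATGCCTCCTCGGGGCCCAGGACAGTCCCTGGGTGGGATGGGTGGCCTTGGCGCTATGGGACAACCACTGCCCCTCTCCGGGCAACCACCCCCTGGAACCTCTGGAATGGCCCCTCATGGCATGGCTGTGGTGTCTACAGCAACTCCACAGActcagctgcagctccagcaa
Sgce: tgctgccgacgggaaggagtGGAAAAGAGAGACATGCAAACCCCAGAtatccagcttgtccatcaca

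The Os9 exon lies at chr10:127096915-127097079 and has 165 bases, a multiple of 3. Os9 encodes a lectin that hands misfolded glycoproteins to degradation. The share with this exon was 2.13% in control, 99.9% with imidacloprid and 0.105%, 17.2%, 20.7%, 18.6% and 12.9% in the others. The gap to the nearest library was 79.2 points, on a pair total of 17.0 FPKM with imidacloprid and 23.5 in control.

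The Npepps exon, at chr11:97244428-97244535, has 108 bases and went the other way. Npepps is the puromycin-sensitive aminopeptidase, abundant in brain. Its share was 100% in control, 17.5% with imidacloprid and 100%, 100%, 92.7%, 100% and 100% in the others, on totals of 33.7 FPKM in control and 23.5 with imidacloprid. The Med15 exon, at chr16:17680549-17680761, has 213 bases. Med15 is a tail subunit of the Mediator complex. Its share was 100% in all 6 other libraries and 26.9% with imidacloprid, on totals of 7.66 and 11.9 FPKM. All 3 exons keep the reading frame by their length.

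The Sgce microexon, 27 bases at chr6:4690469-4690495, separated control from the exposed libraries. Sgce encodes epsilon-sarcoglycan, a membrane protein of the dystrophin complex that is imprinted in brain. Its share was 14.4% in control, 99.2% with imidacloprid and 88.2%, 68.4%, 88.0%, 69.7% and 91.2% in the others. Imidacloprid was the highest, 7.96 points above the nearest exposed library.

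Apart from Rpl10a, the other single exons with large differences were spread among the insecticides. The Rpl10a form with an internal exon of 314 bases took 100% of its pair with imidacloprid against 3.25% to 4.94% elsewhere, while the pair's total was 7.45 FPKM against 25.2 to 34.8. Kmt2e, a chromatin protein, had a 73-base exon at 6.6% in control, 98.0% with imidacloprid and 31.9%, 84.3%, 0%, 0% and 35.0%. Slc4a1ap was at 0.004% and 84.5%, next to DDT at 82.3%. Tapt1 was at 100% and 19.1%, and Cct8, a subunit of the cytosolic chaperonin, at 99.4% and 20.4%, each just below another insecticide, chlorpyrifos at 20.5% and carbaryl at 20.6%. Usp14, a deubiquitinase of the proteasome, was at 98.6% and 23.5%, with 24.4% to 98.2% in the others.

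Where several exons are skipped together, the annotated pair outside the range of the 5 other exposed libraries with the largest difference from control was in Mapkapk5, a stress-activated kinase, whose share of the form with 5 exons was 97.8% in control, 28.3% with imidacloprid and 34.4% with chlorpyrifos. Sept3, a septin of neurons, was at 100% in all 6 other libraries and 43.0% with imidacloprid for a pair of exons, while the total was 33.8 FPKM against 7.80 to 18.4. Anapc16, a subunit of the anaphase-promoting complex, was at 81.8% and 21.5%, with 54.2% to 86.8% in the others. Golph3, of the Golgi, was at 29.6% and 51.5%, with 24.0% to 29.2%. Parg was at 100% and 54.4%, near rotenone at 59.9%, and Dcun1d2 at 75.4% and 41.8%, with 59.4% to 100% in the others. Upward, Pigq was at 59.1% and 98.6%, Heg1 at 63.4% and 100%, Tmpo at 73.2% and 100% and Fhl1 at 69.1% and 92.8%, each less than 10 points above another library.

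Some introns were kept with imidacloprid and in no other library. An intron of 823 bases in Dhx33, an RNA helicase, was retained in 56.6% of the pair with imidacloprid and in 0% in all 6 others. An intron of 286 bases in Preb, a factor of vesicle export from the endoplasmic reticulum, was at 51.7% and at 0% in all 6 others. Several introns of Arhgef18, a guanine nucleotide exchange factor, were kept in 55.0% of their pair and several of Mcrs1 in 22.0%, both at 0% in the 6 others, and those of Ddx47 at 27.2% against at most 2.85%. Rpl7a, a ribosomal protein gene with a pair total of 283 FPKM with imidacloprid, kept an intron of 186 bases at 14.9% in control, 74.8% with imidacloprid and 29.5%, 51.7%, 6.8%, 49.9% and 32.3%. Single introns of Akt1s1 (0% to 65.5%) and Becn1 (0.03% to 51.8%) were higher with imidacloprid than in any other library. So were groups of introns of Smpd4 (10.8% to 59.6%) and Washc2 (0% to 24.6%). In each of these, another insecticide reached at least 21.8%.

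Of 1741 single introns with 5 FPKM in all 7 libraries, imidacloprid lay at least 20 points above every other library in 13 and below in 3. The other libraries gave 6 to 20 above and 3 to 8 below. Of 248 groups of introns, imidacloprid lay at least 20 points above every other library in 3 and below in 0. The other libraries gave 0 to 2 above and 0 to 2 below. None of the single introns or groups of introns named next lay 20 points below every other library. Phb2, a prohibitin of the inner mitochondrial membrane, was at 58.9% in control, 15.7% with imidacloprid and 60.1%, 52.5%, 61.0%, 32.7% and 60.1% in the others. The pairs of Polrmt, Ring1 and Exosc8 are groups of introns. Polrmt, the mitochondrial RNA polymerase, was at 30.2% and 0%, with 15.1% to 60.4% in the others. Ring1, a Polycomb protein, was at 30.7% and 1.3%, with 14.8% to 26.5%. Exosc8, of the RNA exosome, was at 54.6% and 30.3%, with 39.1% to 97.3%. Single introns of Rsrp1 (81.5% to 1.6%), Paf1 (49.1% to 0.4%), Pusl1 (49.0% to 0.5%) and Appl2 (46.5% to 0.4%) were each within 2.61 points of another insecticide. So was a group of introns in Smpd2 (40.6% to 0%). A group of introns in Slc27a3 was at 10.2% in control, 0.006% with imidacloprid and 0% in the 5 others.

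**Figure D5:**
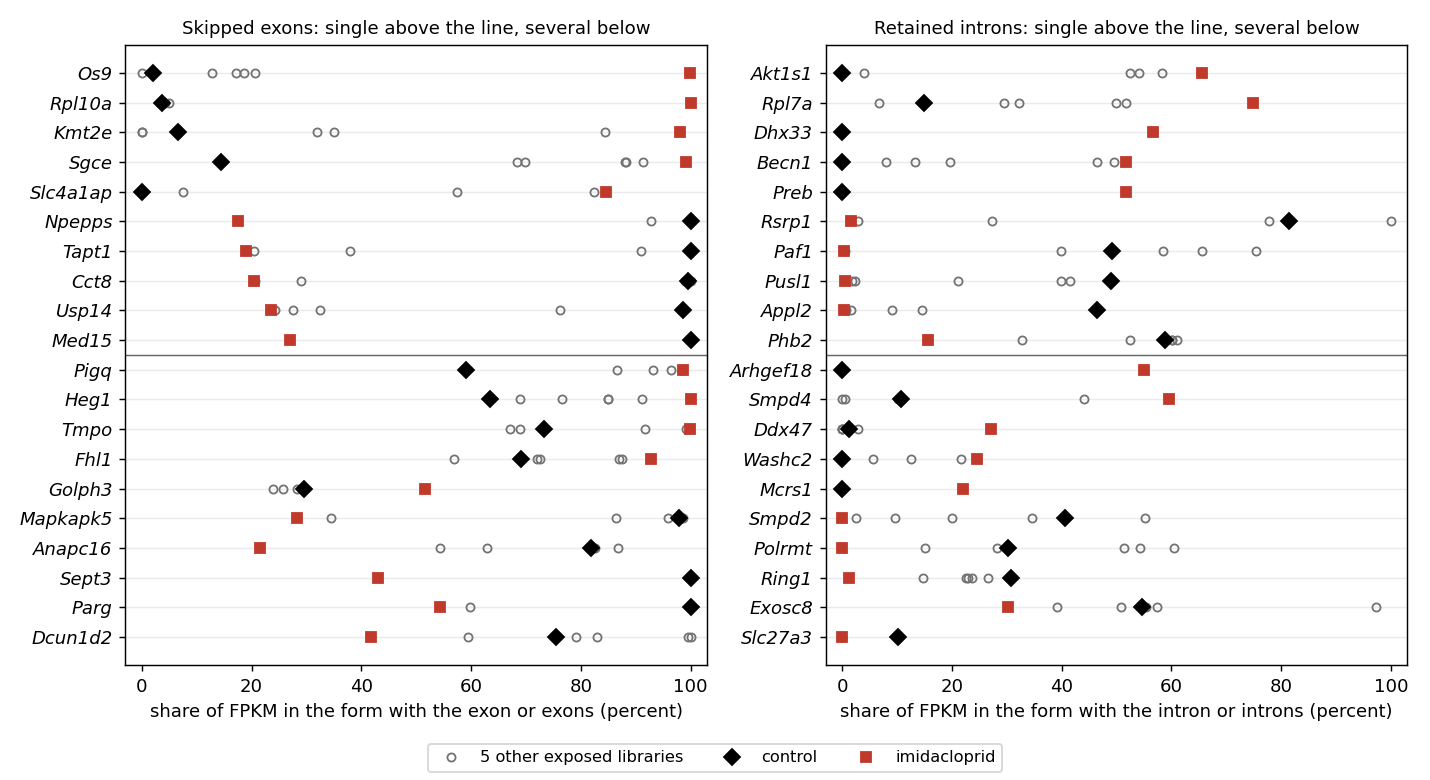
Percent of FPKM in the form with the exon or exons (left) or the intron or introns (right) in each of the 7 libraries, for the 5 largest differences from control in each direction and kind that lie outside the range of the 5 other exposed libraries. Squares are imidacloprid, diamonds control and circles the 5 others; Npepps, Med15, Sept3, Dhx33, Preb and Arhgef18 show imidacloprid alone, while Sgce shows control alone.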

How the data were processed

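The deposited files hold FPKM values per transcript event, 1 file for each of 7 libraries, per the file headers. Per the submitters' processing notes, the authors ran HISAT2 2.0.1, with cutadapt 1.9.1 and bcl2fastq 2.17.1.14 also named, and the build was GRCm38. The tool that made the events and FPKM, and any use of strand, are not given in the sources used here. The values were used as deposited. Only events above 0 are listed, down to 1e-06 FPKM, so the values are model estimates whose depth is unknown, and an event that is not listed was taken as 0.

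Repeated lines, 5388 to 5620 per library, were dropped by event number and type. Starts and ends were summed per gene by the gene named on the line. Where the GENCODE M21 annotation puts a boundary in exactly 1 gene and that is another one, the line was left out. This affected 2176 events and 6.57% of the matched start and end FPKM. A further 113 events whose boundary belongs to several other genes were kept. Leaving lines out departs from the planned use of every line, which the closing section gives as an alternative. A gene's value is the mean of its start and end sums, which are built from the same transcript estimates and so are not independent. Genes were kept where the sums, averaged over 7 libraries, agreed within 0.3 on the log2 scale and the mean was at least 1 FPKM. This gave 6196 genes, of which 6165 were listed in both libraries and 31 were not listed in at least 1 of them. Events were compared at a mean of at least 1 FPKM and shares at a pair total of at least 5 FPKM. List members that failed a filter are given as single values where named.

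Named genes have a mean of at least 5 FPKM and are no predicted model, clone name or pseudogene. They are the 8 highest and 8 lowest folds of at least 2-fold, the 8 farthest above and below all 6 other libraries, all nicotinic and acetylcholine genes with a value, and up to 4 members of other lists with the largest folds. Other list members were named after their values were seen, and some list members are not reported here. Named exons and introns are annotated ones, 8059 of 8424 pairs. The members and the 40 gene lists were chosen with earlier results of these data known, and no list is independent support. Symbols matched the annotation for all but 1 list entry. Exon sequences are the annotated transcripts of GENCODE M21. The steps were run on simulated data, in which some genes and pairs were changed by known amounts. The simulated libraries were copies of control with small gene noise and the same transcript mix. They therefore do not show how the steps behave at the spread between real libraries. Python 3.11.15, pandas 2.3.3 and numpy were used.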

Additional observations from a re-analysis of the deposited data

How the results depend on the processing

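No paired analysis was possible because every group has a single library and all share the replicate number 1. For the same reason no library could be left out of a group. The counts of 54 genes higher and 54 lower became 101 and 90 with a pseudocount of 0.1 FPKM, 108 and 102 without the agreement filter, and 18 and 40 against the median of the 5 other exposed libraries. Of the 18, 8 were among the 54, and of the 40, 28 were. Ctxn1 and Gm49331 are not among the 8, since their median of the 5 was 0. Under the other 8 settings the counts were 43 to 64 higher and 37 to 68 lower. One of these, chosen after seeing the data, kept every line under the gene it names, and gave 55 and 53. Another left out lines that belong to several other genes too, and gave 53 and 55, with Myl12a no longer compared. Genes 2-fold beyond all 6 others, 4 above and 9 below, became 2 and 5 at a mean of at least 5 FPKM and, below, 24 with a pseudocount of 0.1, both chosen after seeing the data.

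At a mean of at least 5 FPKM the counts of 2-fold events were 691 starts, 231 ends, 468 alternative exons, 510 and 397 for single skipped exons in the on and off form, 189 and 62 for several, 72 and 283 for single introns and 7 and 63 for several. Against the median of the 5 others they were 316 ends and 84 off forms of several introns. At a pair total of 10 FPKM the shares 20 points apart numbered 532, with 367 single exons, 58 groups of exons, 96 single introns and 11 groups of introns.

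Against the median of the 5 others, list medians moved to 0.0107 for immediate early genes, 0.0288 for Notch and proneural genes, -0.00184 for the neuronal cytoskeleton, -0.0372 for other transmitters, 0.14 for G2 and mitosis, -0.19 for p53 targets, -0.20 for ATF4 targets, -0.0876 for glycolysis and 0.0344 for splicing regulators. Without the agreement filter they moved to -0.0302 for progenitor markers, -0.0170 for the neuronal cytoskeleton, -0.0250 for apoptosis and 0.0281 for heat shock. Of the genes at 2-fold that were named by fold or as list members, 3 had the other sign against the median of the 5: Eno1b (-0.26), Rsrc1 (-0.15) and Syt1 (-0.0464). Of all 388 list members compared this way, 121 had the other sign, beside 1817 of 6162 genes. The cause of these changes was not tested, apart from those that follow from comparing fewer or more events. With 1 library a group and no read counts, neither replicate nor counting error is known.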

Other observations

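Several exons outside the 5 largest differences also set imidacloprid apart, and those named here were chosen after their values were seen. A 24-base microexon of Slc38a10, a transporter of amino acids, at chr11:120109372-120109395, was included in 74.1% of its pair with imidacloprid and in 0% in all 6 others, on totals of 8.97 FPKM with imidacloprid and 6.14 in control. A 63-base exon of Camk2g, the gamma chain of a calmodulin-dependent kinase, was at 46.1% with imidacloprid and at 6.12%, 0%, 0%, 0%, 0% and 6.48% in control and the 5 others. In Mark2, a kinase of microtubule-binding proteins, a 27-base microexon was at 40.0% with imidacloprid against 69.2% to 79.1% elsewhere, and an exon of 162 bases at 77.0% against 20.5% to 33.0%. A 48-base exon of Raly was at 35.3% against 1.89% to 4.08%. A 60-base exon of Tial1 was at 37.6% against at most 4.18%, and a 104-base exon of Srsf2 at 54.0% against 0.722% to 16.6%. An intron of 289 bases in Rexo1 was kept in 47.0% with imidacloprid and in 0% in all 6 others.

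Some genes were not listed in imidacloprid or control and so have no fold. Tceal5, a transcription elongation factor-like gene, was at 3.56 FPKM in control, 3.21, 2.98, 3.91, 3.06 and 3.31 in the other exposed libraries and was not listed with imidacloprid. Zfp120 was at 1.21 in control, 1.76 to 2.71 in the others and was not listed with imidacloprid. Tmem51 was not listed in control alone, at 1.27 with imidacloprid and 0.98 to 1.5 in the others. Marcks, an abundant substrate of protein kinase C, was not listed in either imidacloprid or control and was at 15.9 to 23.4 FPKM in the 5 others.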
